A study of Homo sapiens with 18 samples.

Results

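The genes described here are 40 components of the protein-folding system of the endoplasmic reticulum (ER), namely its chaperones, disulfide isomerases, the machinery of ER-associated degradation, the sensors of the unfolded protein response (UPR) and the protein translocation channel. The rule is a list of names and uses no measured value, but the names were chosen with earlier results of these data known. All 40 were present among the 55128 genes of the deposited expression table. RNA was sequenced from T98G cells, an established human glioblastoma line, in 6 groups of 3 libraries, 18 in all, after 2 h of treatment. The treated groups received gnetin H (GH), an oligostilbene from peony seeds studied as a glycolysis inhibitor, at 8 µM, the glucose analogue 2-deoxyglucose (2DG) at 10 mM, the mitochondrial complex I inhibitor phenformin (Phen) at 100 µM, GH with phenformin (GH + Phen) or 2DG with phenformin (2DG + Phen) at the same doses, and the control group received the solvent DMSO. The dose of 2DG is that of the labels and of the study's methods, and its results text gives another. The measurements come from a single cell line, a single dose of each agent and a single time.

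Proteins that enter the ER are folded by Hsp70 and Hsp90 chaperones and their J-domain partners, by lectin chaperones that read N-linked glycans, and by disulfide isomerases. Proteins that fail to fold are drawn back into the cytosol and degraded (ER-associated degradation, ERAD). When unfolded proteins build up, the sensors IRE1 (gene ERN1), PERK (EIF2AK3) and ATF6 start the UPR, in which spliced XBP1 and cleaved ATF6 switch on chaperone and ERAD genes while PERK slows translation and raises ATF4. N-linked glycans are built from sugars, and 2DG, a mannose as well as a glucose analogue, is known to disturb their assembly. Most of the 40 genes are known UPR targets, and the translocon genes are mainly housekeeping components of secretion.

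Values are FPKM (sequenced fragments normalised for exon length and library depth). The exon length recovered from the values was as long as 21760 bases, in DNAJC10, so the order of genes by FPKM depends on it. Fold changes are given on the log2(FPKM + 0.1) scale with standard errors (SE), from a limma fit. The fit took in the 12108 genes that reached 0.5 FPKM in 3 or more libraries, and all 40 genes were among them. A gene rose or fell when its p-value, adjusted over all 12108 genes by the Benjamini-Hochberg method, was under 0.05. The replicates are labelled as biological, with no further word on whether they were separate cultures, so the tests measure the spread between these libraries.

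The libraries held 18417757 to 22497605 mapped fragments. Every gene but SDF2L1 had over 100 fragments in each library, while SDF2L1 had 6 to 154. The relation of expression to the GC content of a gene differed between libraries, as a slope in log2 units per 10 percentage points of GC against the mean library. It was −0.201, 0.239 and 0.236 in GH + Phen, −0.18 to 0.044 in GH, 0.083 to 0.324 in 2DG + Phen, 0.139 to 0.303 in 2DG, −0.373 to −0.218 in Phen and −0.313, −0.239 and 0.049 in DMSO, each for replicates A, B and C or as a range. GH + Phen A and DMSO C thus stood apart from their groups. Mitochondrial transcripts took 3.08% to 3.94% of fragments in the combinations and 4.18% to 5.71% in the other groups. The glial and mesenchymal markers VIM (809 to 1063 FPKM), CD44 and FN1 were abundant, and NES, SOX2, GFAP, S100B and OLIG2 were below 0.15 FPKM, while SOX9, of the same list, averaged 25.8 FPKM in GH + Phen, 15.3 in GH, 36.4 in 2DG + Phen, 20.8 in 2DG, 17.4 in Phen and 16.5 FPKM in DMSO. Of 11 markers of other cell types only CD68, which lysosomes of many cells also carry, exceeded 1 FPKM, with 20.5 to 26.0 FPKM in 2DG and 8.79 to 15.8 FPKM in DMSO. The other 10 summed to 0.917 to 1.2 FPKM in 2DG and 0.952 to 1.41 FPKM in DMSO, and the pan-leukocyte gene PTPRC was at or near 0 throughout. The part of the GC slope, of the mitochondrial share, of SOX9 and of CD68 in the results below was not tested, except where a value corrected for GC content is given. In RNA from whole cultures a change in every cell and a larger one in some of them cannot be told apart.

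In DMSO the 40 genes spanned a wide range of expression. The lectin chaperone CANX was highest at 402 ± 24.7 FPKM (SD, n = 3 here and below), followed by HSP90B1 at 225 ± 12.5, PDIA3 at 175 ± 10.5, HSPA5 at 174 ± 6.71, CALR at 167 ± 25.6 and P4HB at 107 ± 16.6 FPKM. PDIA3, HSPA5 and CALR lay within each other's spread. Another 22 genes were between 10 and 100 FPKM and 12 below 10 FPKM, with the sensor gene ERN1 lowest at 0.842 ± 0.0526 FPKM. Among the sensors ERN1, EIF2AK3 and ATF6, ATF6 had the highest FPKM (14.1 ± 0.598). That was below the 6 genes listed first and above the chaperone genes DNAJB9, DNAJC10 and SDF2L1 and the secreted CRELD2. Over all libraries DNAJC10 had more fragments (2773 to 4024) than ATF6 (1903 to 2611), on an exon length of 21760 against 7890 bases.

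In 5 of the 40 genes, HERPUD1, HSPA5, DNAJB9, XBP1 and DNAJB11, all 9 libraries of GH, 2DG and GH + Phen lay above all 9 of 2DG + Phen, Phen and DMSO, a split that 0.149% of all tested genes showed. The split was not a planned comparison and follows the pattern of these genes, so the share describes it and is no test. The gap was narrow in DNAJB11, whose lowest value in the high set was 22.6 FPKM and whose highest in the low set was 21.1 FPKM. Each of the 5 rose in GH, in 2DG and in GH + Phen, whereas in 2DG + Phen each was lower than in 2DG and at or near its DMSO level. For DNAJB11 the fall against 2DG was lost in each of the 6 fits that left out a library of the pair, so the account below turns on the other 4.

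HERPUD1 (chr16:56932048-56944863, GRCh38 by the GENCODE annotation, plus strand) encodes an ER membrane protein that assembles the ERAD ubiquitin ligase and is a UPR target. It had 38.1, 36.0 and 36.2 FPKM in GH + Phen, and 38.3, 37.6 and 35.9 FPKM in GH. In 2DG + Phen it had 9.95, 9.32 and 9.51 FPKM, against 42.1, 41.1 and 38.8 FPKM in 2DG. Phenformin alone gave 9.41, 9.19 and 8.42 FPKM, against 10.1, 10.5 and 9.69 FPKM in DMSO. All 9 libraries of GH, 2DG and GH + Phen lay above all 9 of 2DG + Phen, Phen and DMSO, with no value in between. Against DMSO the log2 fold change was 1.88 (SE 0.049, adjusted p = 2.61e-12) in GH, 2.00 (SE 0.049, adjusted p = 1.4e-12) in 2DG and 1.86 (SE 0.049, adjusted p = 2.03e-12) in GH + Phen by limma. It was −0.07 (SE 0.049, adjusted p = 0.234) in 2DG + Phen, where the 95% interval ran from −0.17 to 0.035. The genes AC012181.2 and AC012181.3 overlap it on the same strand at medians of 1.34 and 0.507 FPKM.

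HSPA5 (chr9:125234853-125241330, minus strand) encodes BiP, the Hsp70 of the ER, which holds the sensors inactive until unfolded proteins draw it away. Its levels were 415, 366 and 363 FPKM in GH + Phen and 364, 362 and 342 FPKM in GH. They were 200, 200 and 188 FPKM in 2DG + Phen and 422, 398 and 402 FPKM in 2DG. Phen libraries held 182, 178 and 171 FPKM, against 178, 178 and 166 FPKM in DMSO. Here too the 9 raised libraries did not overlap the other 9. HSPA5 rose 2.04-fold in GH (log2 1.03, SE 0.051, adjusted p = 1.19e-08), 2.34-fold in 2DG (log2 1.23, SE 0.051, adjusted p = 4.74e-10) and 2.19-fold in GH + Phen (log2 1.13, SE 0.051, adjusted p = 8.74e-10). In 2DG + Phen a small rise passed the limma test at 0.17 (SE 0.051, adjusted p = 0.0128), with all 3 libraries above the highest DMSO library, and was 0.15 (adjusted p = 0.0562) after quantile normalization.

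DNAJB9 (chr7:108569568-108574850, plus strand), the J-domain protein ERdj4 and a strong XBP1 target, was the only one of these 4 that was higher in GH than in 2DG. It had 24.4, 19.2 and 20.4 FPKM in GH + Phen and 24.6, 24.4 and 21.9 FPKM in GH. The 2DG + Phen libraries had 8.06, 8.44 and 7.94 FPKM, and those of 2DG 18.1, 16.3 and 16.2 FPKM. Phen gave 9.05, 9.35 and 8.46 FPKM and DMSO 10.9, 9.26 and 7.67 FPKM. The GH values were all above those of 2DG, which were all above the 9 libraries of 2DG + Phen, Phen and DMSO. The log2 fold change against DMSO was 1.35 (SE 0.11, adjusted p = 2.97e-06) in GH, 0.86 (SE 0.11, adjusted p = 4.25e-05) in 2DG and 1.20 (SE 0.11, adjusted p = 2.39e-06) in GH + Phen. GH exceeded 2DG by 0.48 (SE 0.11, adjusted p = 0.00367), while 2DG + Phen stood at −0.17 (SE 0.11, adjusted p = 0.183) against DMSO and did not pass.

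XBP1 (chr22:28794555-28800597, minus strand), the transcription factor whose mRNA is spliced by IRE1, changed less in size but with a narrow spread. Its total transcript, which at gene level does not separate the spliced form, was at 50.6, 46.2 and 46.4 FPKM in GH + Phen and 47.7, 47.0 and 47.4 FPKM in GH. It stood at 35.9, 34.7 and 34.1 FPKM in 2DG + Phen and at 53.2, 50.8 and 51.8 FPKM in 2DG. In Phen it was at 33.1, 34.0 and 33.7 FPKM, and in DMSO at 31.9, 31.8 and 30.9 FPKM. The 9 libraries of GH, 2DG and GH + Phen again did not overlap the rest. XBP1 rose by a log2 of 0.58 (SE 0.036, adjusted p = 1.35e-07) in GH, 0.72 (SE 0.036, adjusted p = 3.84e-09) in 2DG, 0.60 (SE 0.036, adjusted p = 3.1e-08) in GH + Phen and 0.15 (SE 0.036, adjusted p = 0.00433) in 2DG + Phen.

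**Figure D1:**
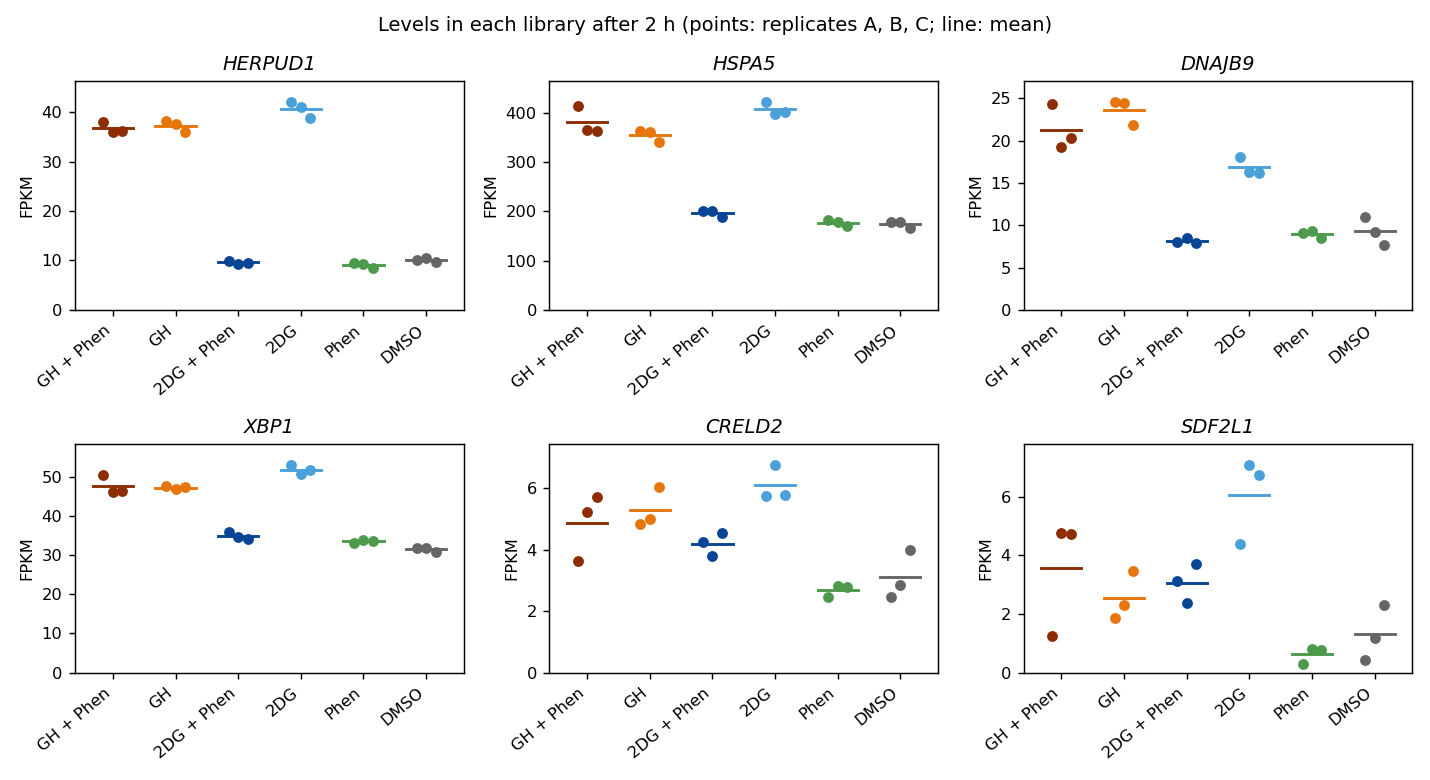
FPKM (vertical axis, from 0) of HERPUD1, HSPA5, DNAJB9, XBP1, CRELD2 and SDF2L1 in each library of the 6 groups, with replicates A, B and C as points and the group mean as a line. For the first 4 genes the libraries of GH + Phen, GH and 2DG form a high set and those of 2DG + Phen, Phen and DMSO a low set, while CRELD2 and SDF2L1 spread more within groups.

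The promoters of HSPA5, HERPUD1 and XBP1 are shown with the ER stress response element in its ERSE form (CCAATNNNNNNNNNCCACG) or ERSE-II form (ATTGGNCCACG), sites known to be read by ATF6 and XBP1 with NF-Y. They are shown because they hold the element. DNAJB9 and DNAJB11, which had the same split between the groups, held neither form in the promoter searched. The stretches are taken from the RefSeq promoter table (GRCh38.p14), 5′ to 3′ on the strand of the gene, 130 bases each that end before the annotated start of the gene, and the capitals mark the fixed bases at either end of the element.
HSPA5 chr9:125241344-125241473, minus strand: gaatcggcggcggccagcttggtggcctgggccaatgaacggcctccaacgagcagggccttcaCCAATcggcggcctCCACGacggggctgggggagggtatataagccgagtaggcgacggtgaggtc
HERPUD1 chr16:56931918-56932047, plus strand: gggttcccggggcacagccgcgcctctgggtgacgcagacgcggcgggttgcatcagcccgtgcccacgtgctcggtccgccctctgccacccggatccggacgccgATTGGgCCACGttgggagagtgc
XBP1 chr22:28800598-28800727, minus strand: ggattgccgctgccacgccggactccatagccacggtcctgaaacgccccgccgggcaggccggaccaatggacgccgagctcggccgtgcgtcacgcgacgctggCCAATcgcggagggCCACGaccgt

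GH against DMSO addressed what the glycolysis inhibitor does on its own. Of the 40 genes 15 rose and none fell, where 2.29% of all tested genes rose and 3.63% fell. The risers were HERPUD1, HSPA5, DNAJB9, XBP1, MANF, PDIA4, DNAJB11, DNAJC3, HYOU1, CALR, CRELD2, SEL1L, PDIA6, HSP90B1 and EIF2AK3, so chaperones, isomerases and secreted stress proteins took 11 of the 15. The median log2 fold change of the 40 genes was 0.16, beside 0.015 over all genes. HERPUD1, HSPA5 and DNAJB9 also passed the stricter thresholds of the study (fold of at least 2, Bonferroni p of at most 0.05 and a mean FPKM of at least 1), as did 0.0991% of all genes. These thresholds were applied here to the limma fit, whereas the study used its own model, so the genes called can differ. The count was 9 without DMSO B, 23 without both DMSO C and GH + Phen A, the libraries that stood apart in GC slope, and 5 when only the GH and DMSO libraries entered the fit, those 5 being HSPA5, DNAJB9, MANF, HERPUD1 and XBP1. Over all tested genes 1.28% rose and 1.75% fell without DMSO B. The shares were 9.57% and 8.62% without both DMSO C and GH + Phen A, and 0.24% and 0.454% with GH and DMSO alone. Of the 15 calls 8 held in all 6 fits that left out a GH or DMSO library, and the rest held in fewer, HSP90B1 and EIF2AK3 in 2, HYOU1, CALR and CRELD2 in 3 and PDIA6 and SEL1L in 4.

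In 2DG, 15 of the 40 genes rose and 10 fell against DMSO, beside 24.7% and 30.3% of all tested genes. Since 2DG changed a large share of the transcriptome at this threshold, the shares of these genes say little by themselves, and the median log2 fold change was 0.028, beside −0.045 over all genes. What stood out was size: HERPUD1 and HSPA5 passed the study's thresholds, which 0.429% of all genes did. The split of calls was 17 to 5 under median-of-ratios scaling and 20 to 2 after correction for GC content and length. Of all tested genes 28.7% rose and 22.7% fell under that scaling, and 22.7% and 21% after the correction. With that correction 11 of the 15 genes still rose, but of the 10 that fell EDEM3 alone did so, EDEM2 was added, and SSR3 turned to a rise (0.10). Of the 25 calls 14 held in all 6 fits that left out a library of the pair, and the rest in fewer, DNAJC10, EDEM1, ATF6, ATF6B, WFS1, SEC61B, SSR3 and SSR4 in 2, HSPA13 and SEC61G in 4 and DNAJB11 in 5. The total of 25 was 16 without 2DG C and 15 without DMSO A or without DMSO B.

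Phenformin alone changed none of the 40 genes by limma, with 5 at an unadjusted p under 0.05, beside 0.339% of all genes that rose and 0.206% that fell. None passed the study's thresholds, which 0.00826% of all genes did. The interval of HSPA5 against DMSO was −0.085 to 0.13 and that of XBP1 0.013 to 0.17 on the log2 scale. HERPUD1 stood at −0.16 (SE 0.049, adjusted p = 0.215).

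In GH + Phen, 10 genes rose and 4 fell against DMSO, beside 9.4% and 18.6% of all genes. HERPUD1, HSPA5 and DNAJB9 passed the study's thresholds, which 0.545% of all genes did. In addition to the 4 leading genes, HYOU1, DNAJB11, CALR, PDIA4, MANF and CRELD2 rose, while EDEM1, EDEM3, DERL1 and DERL2, all ERAD components, fell. The total of 14 moved to 27 without GH + Phen A, 23 without DMSO C, 35 without both (21 rose and 14 fell), 9 without GH + Phen B or C, and 4 with the compared groups alone. Of all tested genes 26.7% rose and 29.5% fell without GH + Phen A, and 21.1% and 22.6% without DMSO C. The shares were 31.1% and 32.7% without both, and 1.47% and 3.94% with the compared groups alone. Of the 14 calls 9 held in all 6 fits that left out a library of the pair, and the rest in fewer, HYOU1, CRELD2 and EDEM3 in 2 and EDEM1 and DERL2 in 3.

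In 2DG + Phen, 12 genes rose and 13 fell against DMSO, beside 21.1% and 32.8% of all genes. None passed the study's thresholds in the limma fit, although 1.37% of all genes did. The study's own model called more genes in this group, and its calls are not set against these here. HSPA5 and XBP1 rose by small amounts, HERPUD1 and DNAJB9 did not pass, and the largest changes that passed were 1.40 for SDF2L1 and a log2 fold change of −0.67 for EDEM3. The split was 15 to 6 under median-of-ratios scaling and 15 to 7 after correction for GC content and length. Of all tested genes 27.5% rose and 24.8% fell under that scaling, and 28% and 22.9% after the correction. With that correction HSPA5, CALR, OS9, ATF6B and XBP1 of the 12 still rose, MANF, EDEM1, EDEM3, DERL1 and EIF2AK3 of the 13 still fell, and SSR3 turned to a rise (0.17). Of the 25 calls only 9 held in all 6 fits that left out a library of the pair, and the rest in fewer, HYOU1, SDF2L1, CALR, PDIA3, PDIA4, CRELD2, OS9, ATF6B, WFS1, SSR3 and SSR4 in 2, HSPA13, P4HB and SEL1L in 3 and SSR1 and SERP1 in 5. The total of 25 was 14 without 2DG + Phen A, 11 without 2DG + Phen C, 9 without DMSO A, 11 without DMSO B, and 15 with the compared groups alone. Of all tested genes 13.2% rose and 28.2% fell without 2DG + Phen A, and 9.64% and 25.6% without 2DG + Phen C. The shares were 8.91% and 25.8% without DMSO A, 10.4% and 26.1% without DMSO B, and 16.3% and 27.7% with the compared groups alone.

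**Figure D2:**
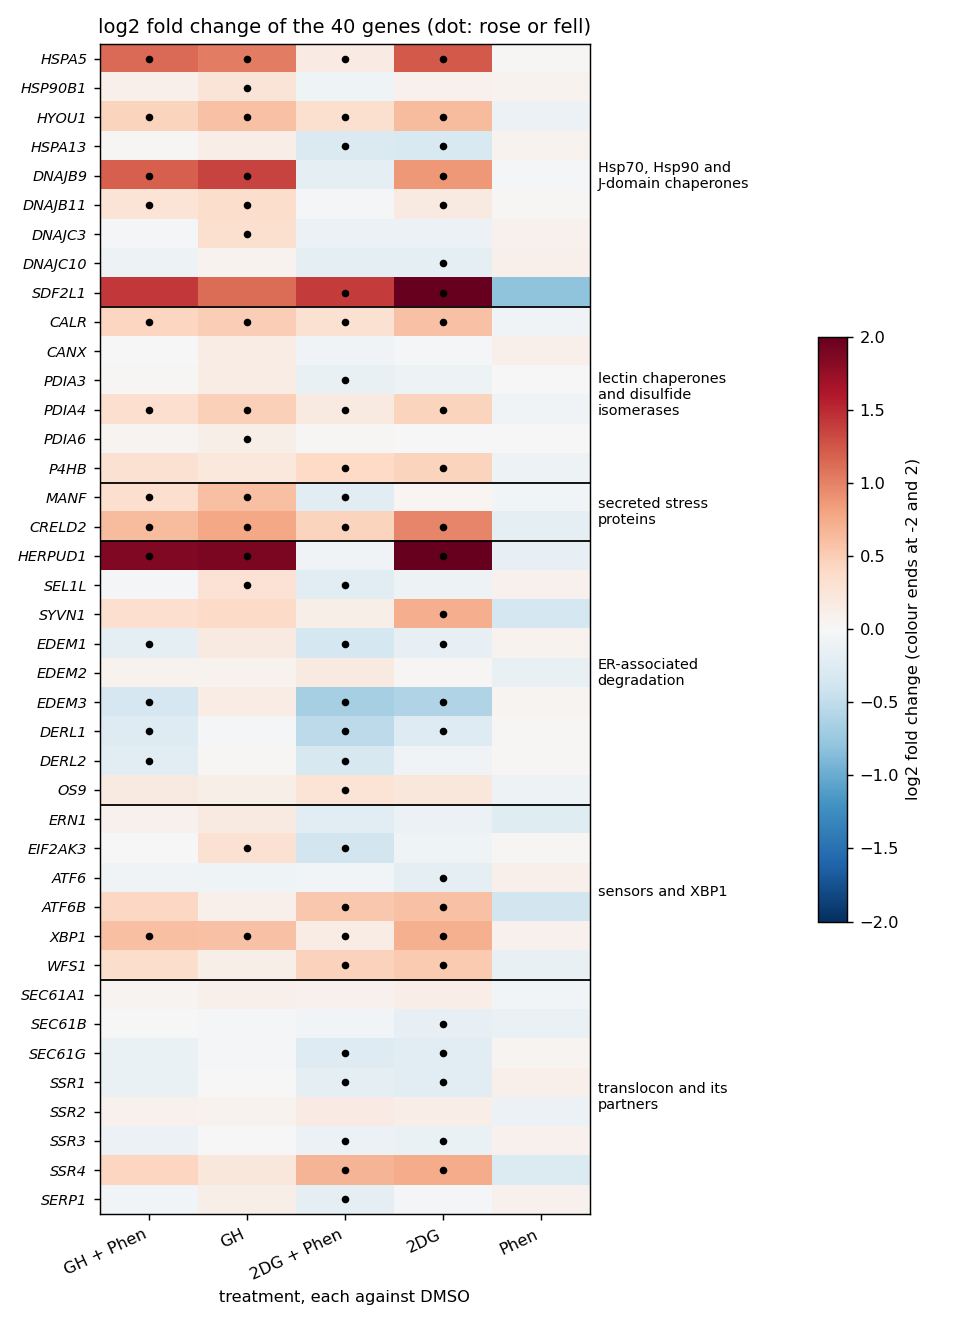
Colour gives the log2 fold change of each of the 40 genes (rows, in 6 role groups) in GH + Phen, GH, 2DG + Phen, 2DG and Phen against DMSO (columns), and a dot marks a gene that rose or fell. HERPUD1, HSPA5 and DNAJB9 are deep red in GH + Phen, GH and 2DG but pale in 2DG + Phen, and no gene has a dot in the Phen column.

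A group of 9 genes held the Hsp70, Hsp90 and J-domain chaperones and, beside them, their partner SDF2L1. Of these 9, 6 rose in GH, 4 rose in GH + Phen, 5 rose and 2 fell in 2DG, and 3 rose and 1 fell in 2DG + Phen. SDF2L1 was among those that rose in 2DG and in 2DG + Phen. For this and the next groups, the shares of all tested genes were 2.29% rising and 3.63% falling in GH, 24.7% and 30.3% in 2DG, 9.4% and 18.6% in GH + Phen, and 21.1% and 32.8% in 2DG + Phen, so that counts in 2DG and 2DG + Phen are read against a large background. HYOU1, the large Hsp70 that exchanges nucleotide on BiP, rose by 0.58 (SE 0.12, adjusted p = 0.012) in GH and 0.63 (SE 0.12, adjusted p = 0.00136) in 2DG. The BiP co-chaperone DNAJB11 rose by 0.35 (SE 0.057, adjusted p = 0.00204) in GH and 0.27 (SE 0.057, adjusted p = 0.00265) in GH + Phen, and a gene of the same strand, AC068631.2 (median 16.2 FPKM), overlaps it. DNAJC3 (P58IPK), a J-domain protein that restrains PERK, rose by 0.33 (SE 0.063, adjusted p = 0.00698) in GH, stood at −0.12 (SE 0.063, adjusted p = 0.124) in 2DG, where the corrected value was a rise of 0.11, and was higher in GH than in 2DG by 0.44 (SE 0.063, adjusted p = 0.000169). Its GH libraries had 32.2, 32.9 and 30.4 FPKM, the 2DG libraries 23.7, 22.9 and 23.5 FPKM and the DMSO libraries 26.3, 26.3 and 23.5 FPKM, and those of GH lay above all 15 others. HSP90B1 (GRP94), the Hsp90 of the ER, rose only slightly in GH (0.25, SE 0.058, adjusted p = 0.0193), and that call was lost in 4 of 6 fits that each left out a library. HSPA13, an Hsp70-like ATPase, and DNAJC10, a reductase with a J-domain, fell in 2DG. They fell by 0.30 and 0.20 on the log2 scale. Both are poor in GC, and after correction their values were −0.037 and −0.062 and did not pass.

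SDF2L1, a partner of DNAJB11 in the BiP cycle, had the largest fold change in 2DG on the lowest counts. It had 1.25, 4.76 and 4.72 FPKM in GH + Phen, 1.88, 2.31 and 3.46 FPKM in GH and 3.12, 2.37 and 3.70 FPKM in 2DG + Phen. Its levels were 4.37, 7.10 and 6.74 FPKM in 2DG, 0.296, 0.797 and 0.760 FPKM in Phen and 0.442, 1.17 and 2.31 FPKM in DMSO. The 2DG libraries lay above all of DMSO, whereas GH A and B and GH + Phen A overlapped DMSO C. The rise in 2DG was 2.35 (SE 0.54, adjusted p = 0.0035) and that in 2DG + Phen 1.40 (SE 0.54, adjusted p = 0.0404), while GH stood at 1.12 (SE 0.54, adjusted p = 0.299). SDF2L1 has the highest GC content of the 40 genes, 64.5%, and after correction its value was 1.48 in 2DG (adjusted p = 0.00134) and 0.65 in 2DG + Phen (adjusted p = 0.0841).

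Of the 6 lectin chaperones and disulfide isomerases, 3 rose in GH, 3 in 2DG and 2 in GH + Phen, and 3 rose and 1 fell in 2DG + Phen. PDIA4 (ERp72) rose in all of GH (0.48, SE 0.072, adjusted p = 0.00116), 2DG (0.44, SE 0.072, adjusted p = 0.000336) and GH + Phen (0.33, SE 0.072, adjusted p = 0.00348). CALR, the soluble lectin chaperone, rose by 0.49 (SE 0.10, adjusted p = 0.0127) in GH and 0.58 (SE 0.10, adjusted p = 0.000739) in 2DG. Its membrane counterpart CANX and its partner PDIA3 did not pass in either, at 0.15 and 0.14 in GH and −0.034 and −0.10 in 2DG, although CANX rose there after correction for GC content and length (0.10). P4HB (protein disulfide isomerase) rose by 0.45 (SE 0.12, adjusted p = 0.00827) in 2DG and 0.40 (SE 0.12, adjusted p = 0.0137) in 2DG + Phen, but stood at −0.043 and 0.001 after correction for GC content and length, where neither passed. PDIA6 rose in GH by no more than 0.11 (SE 0.024, adjusted p = 0.0118).

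Both secreted stress proteins rose in GH, and they parted in 2DG. MANF, a neurotrophic factor held in the ER by BiP, had 55.2, 46.1 and 47.9 FPKM in GH + Phen, 62.7, 58.1 and 57.8 FPKM in GH and 34.5, 33.9 and 32.2 FPKM in 2DG + Phen. Its values were 41.5, 41.8 and 37.1 FPKM in 2DG, 37.6, 37.6 and 37.1 FPKM in Phen and 40.5, 38.9 and 37.9 FPKM in DMSO. GH and GH + Phen libraries were all above those of the other groups, and 2DG + Phen libraries all below those of DMSO. MANF rose by 0.60 (SE 0.062, adjusted p = 4.68e-05) in GH and 0.34 (SE 0.062, adjusted p = 0.00107) in GH + Phen, stood at 0.036 (SE 0.062, adjusted p = 0.633) in 2DG, and fell by 0.22 (SE 0.062, adjusted p = 0.00945) in 2DG + Phen. GH exceeded 2DG by 0.57 (SE 0.062, adjusted p = 2.08e-05). CRELD2, an ER-resident and secreted disulfide isomerase, had 3.64, 5.21 and 5.72 FPKM in GH + Phen, 4.85, 4.99 and 6.05 FPKM in GH and 4.26, 3.80 and 4.53 FPKM in 2DG + Phen. Its libraries held 5.75, 6.77 and 5.79 FPKM in 2DG, 2.45, 2.81 and 2.78 FPKM in Phen and 2.46, 2.85 and 4.0 FPKM in DMSO. GH and 2DG libraries were above all DMSO libraries, but DMSO C was higher than GH + Phen A and 2DG + Phen B. CRELD2 rose by 0.77 (SE 0.17, adjusted p = 0.0147) in GH and 0.98 (SE 0.17, adjusted p = 0.000594) in 2DG, and the difference between them did not pass (−0.20, SE 0.17, adjusted p = 0.328), while after correction for GC content and length GH was the higher by 0.19 (adjusted p = 0.0185).

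Of the 9 ERAD genes, HERPUD1 and SEL1L rose in GH, 2 rose and 3 fell in 2DG, 1 rose and 4 fell in GH + Phen, and 1 rose and 5 fell in 2DG + Phen. SEL1L, the scaffold of the HRD1 ligase, rose by 0.29 (SE 0.066, adjusted p = 0.0152) there, stood at −0.10 in 2DG, where the corrected value was a rise of 0.12, and was higher in GH than in 2DG by 0.39 (SE 0.066, adjusted p = 0.000555). SYVN1, the HRD1 ligase itself, stood at 0.39 (SE 0.16, adjusted p = 0.208) in GH and rose in 2DG by 0.73 (SE 0.16, adjusted p = 0.00292). It is on the same strand as the abundant gene FAU (median 48.8 FPKM), which overlaps it, and its 2DG value was 0.24 after correction for GC content and length (adjusted p = 0.00557). EDEM3, a mannosidase-like protein that marks glycoproteins for degradation, had 8.19, 6.43 and 6.01 FPKM in GH + Phen, 5.16, 5.58 and 5.48 FPKM in 2DG + Phen, 5.76, 5.54 and 5.61 FPKM in 2DG and 8.93, 9.13 and 7.88 FPKM in DMSO. The 2DG and 2DG + Phen libraries were all below those of DMSO, and GH + Phen A was above DMSO C. EDEM3 fell by 0.61 (adjusted p = 0.000282) in 2DG and, after correction, by 0.44 (adjusted p = 1.34e-05). DERL1, a channel component of retrotranslocation, had 12.4, 12.9 and 12.8 FPKM in 2DG + Phen, 15.9, 14.9 and 15.1 FPKM in 2DG and 19.1, 18.6 and 17.3 FPKM in DMSO, in 3 sets that did not overlap. It fell by 0.53 (SE 0.056, adjusted p = 4.2e-06) in 2DG + Phen against DMSO. EDEM2 and OS9, a lectin that reads trimmed glycans, did not pass in GH or 2DG, at 0.077 and 0.11 in GH and 0.02 and 0.22 in 2DG, while the corrected value of EDEM2 in 2DG, −0.20, passed.

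Of the 6 sensor and XBP1 genes, 2 rose in GH and 1 rose in GH + Phen, while 2DG and 2DG + Phen each had 3 that rose and 1 that fell. ERN1 (IRE1) had 0.810, 0.846 and 1.07 FPKM in GH + Phen, 1.03, 0.947 and 0.925 FPKM in GH and 0.741, 0.712 and 0.656 FPKM in 2DG + Phen. It had 0.701, 0.849 and 0.749 FPKM in 2DG, 0.709, 0.676 and 0.701 FPKM in Phen and 0.818, 0.806 and 0.903 FPKM in DMSO. GH libraries lay just above and those of 2DG + Phen and Phen just below the DMSO libraries, but the steps were small and ERN1 passed in none of the 5 comparisons with DMSO, of which 1, that of Phen, had an unadjusted p under 0.05. EIF2AK3 (PERK) had 9.32, 8.28 and 7.50 FPKM in GH + Phen, 10.4, 10.7 and 9.86 FPKM in GH and 6.46, 6.70 and 6.20 FPKM in 2DG + Phen. It had 8.45, 7.99 and 7.24 FPKM in 2DG, 8.48, 8.50 and 8.43 FPKM in Phen and 8.69, 8.36 and 8.07 FPKM in DMSO. GH libraries were all above, and 2DG + Phen libraries all below, those of DMSO. It rose by 0.30 (SE 0.071, adjusted p = 0.0215) in GH and fell by 0.37 (SE 0.071, adjusted p = 0.000721) in 2DG + Phen. ATF6 had 14.7, 13.2 and 12.7 FPKM in GH + Phen, 13.7, 13.8 and 12.7 FPKM in GH and 13.9, 14.4 and 12.7 FPKM in 2DG + Phen. It had 12.9, 12.2 and 12.3 FPKM in 2DG, 15.4, 15.1 and 15.0 FPKM in Phen and 14.6, 14.3 and 13.5 FPKM in DMSO. The 2DG values were below all DMSO values, and the log2 fold change of −0.17 that passed there (adjusted p = 0.0211) was −0.005 after correction for GC content and length, which did not pass. ATF6B, a paralogue of ATF6, and WFS1 (wolframin), an ER membrane protein that regulates ATF6, rose in 2DG by 0.58 and 0.52, and stood at 0.21 and −0.10 after that correction, where neither passed.

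None of the 8 translocon genes passed in GH or GH + Phen, with 0 and 3 of them at an unadjusted p under 0.05. In GH their values ran from −0.045 for SEC61B, a subunit of the SEC61 channel, to 0.23 for SSR4, a subunit of the translocon-associated protein complex. In 2DG, SSR4 rose by 0.74 (adjusted p = 0.0156), while SEC61B, SEC61G, SSR1 and SSR3 fell by 0.13 to 0.23 on the log2 scale. After correction for GC content and length SSR4 stood at 0.015, SSR1 at −0.054, SEC61B at 0.014 and SEC61G at 0.062, of which none passed, while SSR3 turned to a rise of 0.10. SEC61A1, the pore subunit, stood at 0.14 in 2DG and SERP1, a UPR-induced translocon stabiliser, at −0.019, or 0.19 after the correction, which passed.

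GH and 2DG were then compared directly, at the single dose of each. GH was higher than 2DG for 18 of the 40 genes and lower for 2, HSPA5 and XBP1, beside 24.7% and 14.6% of all tested genes. Beside MANF, DNAJC3, SEL1L and DNAJB9, the genes higher in GH with the smallest adjusted p were EDEM3 (0.76, SE 0.10, adjusted p = 6.81e-05) and EDEM1 (0.35, SE 0.056, adjusted p = 0.000373). EIF2AK3 was higher in GH by 0.38 (SE 0.071, adjusted p = 0.00112). Of the 18, 9 did not pass after correction for GC content and length, but none of those named with values here was among them. The log2 difference was −0.20 (SE 0.051, adjusted p = 0.00917) for HSPA5, which did not pass after quantile normalization (−0.15), and −0.13 (SE 0.036, adjusted p = 0.0118) for XBP1, while HERPUD1 did not pass (−0.12, SE 0.049, adjusted p = 0.0545). Of the 20 calls 14 held in all 6 fits that left out a library of the pair, and the rest in fewer, HSP90B1, DNAJB11, DNAJC10, ERN1 and SSR3 in 2 and CANX in 3.

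Phenformin beside GH was set against GH alone. None of the 40 genes rose and 8 fell, beside 3.3% and 9.22% of all genes. The 8 were EDEM1, DNAJC3, EDEM3, SEL1L, EIF2AK3, MANF, DERL2 and DERL1, with EDEM1 at −0.38 (SE 0.056, adjusted p = 0.00047) and DNAJC3 at −0.36 (SE 0.063, adjusted p = 0.00185). Leaving out a library of the pair kept 4 of these calls in all 6 fits and the others in fewer, DERL1 in 2, MANF and DERL2 in 3 and EIF2AK3 in 4. MANF did not pass after correction for GC content and length (adjusted p = 0.075). HERPUD1 stood at −0.02 with an interval of −0.12 to 0.085, HSPA5 at 0.10 with −0.01 to 0.21, DNAJB9 at −0.15 with −0.38 to 0.077 and XBP1 at 0.011 with −0.066 to 0.087. The count of 8 was 5 without GH B, 18 without GH + Phen A, 5 without GH + Phen B and 4 without GH + Phen C, 0 with the compared groups alone, and 23 without both GH + Phen A and DMSO C (5 rose and 18 fell). Of all tested genes 16.6% rose and 22.8% fell without GH + Phen A, and 22.7% and 26.1% without both libraries. With the compared groups alone the shares were 0.595% and 0.553%. As a departure from the sum of the single effects (interaction), 4 genes were lower than additive and none higher, beside 3.73% and 1.45% of all genes. They were EDEM1 (−0.45, SE 0.079, adjusted p = 0.00525), DNAJC3 (−0.44, SE 0.089, adjusted p = 0.0122), SEL1L and EDEM3. The count in either direction was 21 without GH + Phen A (4 above and 17 below additive). It was 17 without both GH + Phen A and DMSO C (2 above and 15 below) and 1 with the compared groups alone. Of all tested genes 17.9% lay above and 19.7% below additive without GH + Phen A. The shares were 9.33% and 13.8% without both libraries, and 0.669% and 1.17% with the compared groups alone. EDEM3 held in 4 and SEL1L in 6 of the 12 fits that left out a library. The count was 2 without any one of GH A, GH B, Phen A, GH + Phen B, GH + Phen C and DMSO C. Over the 40 genes Pearson's r between log2 value and GC content was 0.64 for GH + Phen against GH and 0.78 for the interaction. The 4 genes below additive have 35.7% to 45.0% GC, and the part of GC content in their values was not tested.

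Phenformin beside 2DG was set against 2DG alone. Here 11 genes fell and none rose, beside 7.69% and 3.53% of all genes. HERPUD1 fell to 9.59 FPKM in 2DG + Phen, against 40.7 FPKM in 2DG (log2 −2.07, SE 0.049, adjusted p = 1.24e-12). The log2 fold change was −1.05 (SE 0.051, adjusted p = 6.8e-09) for HSPA5, −1.04 (SE 0.11, adjusted p = 1.45e-05) for DNAJB9 and −0.57 (SE 0.036, adjusted p = 8.85e-08) for XBP1. The others were SYVN1 at −0.62 (SE 0.16, adjusted p = 0.0221), and DNAJB11, PDIA4, MANF, DERL1, DERL2 and EIF2AK3 between −0.28 and −0.19, of which MANF did not pass after correction for GC content and length (adjusted p = 0.159). The 4 leading genes and DERL1 passed in all 6 fits that left out a library of the pair, and the other calls in fewer, DNAJB11 in 0, PDIA4 and SYVN1 in 2, MANF and EIF2AK3 in 3 and DERL2 in 4. The count was 7 without 2DG A, 6 without 2DG B and 7 without 2DG + Phen A. Of all tested genes 5.19%, 5.91% and 5.61% fell in these fits, and 2.82%, 2.21% and 2.36% rose. The interaction was below additive for HERPUD1 (−1.91, SE 0.069, adjusted p = 6.01e-10), HSPA5 (−1.08, SE 0.072, adjusted p = 4.02e-07), DNAJB9 (−1.0, SE 0.15, adjusted p = 0.00115), XBP1 (−0.66, SE 0.051, adjusted p = 1.85e-06) and DERL1 (−0.29, SE 0.079, adjusted p = 0.0489), and above it for none, beside 3.59% and 1.38% of all genes. The DERL1 interaction held in only 1 of the 12 fits that left out a library, and the other 4 in all 12.

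The difference between the effects of phenformin beside GH and beside 2DG was tested in a comparison added after the values had been seen. It uses GH + Phen, GH, 2DG + Phen and 2DG and no DMSO library. The 4 genes HERPUD1 (2.05, SE 0.069, adjusted p = 2.16e-10), HSPA5 (1.15, SE 0.072, adjusted p = 3.17e-07), DNAJB9 (0.88, SE 0.15, adjusted p = 0.00635) and XBP1 (0.58, SE 0.051, adjusted p = 1.3e-05) passed, all with the higher value beside GH, and no gene passed with a lower one. Of all tested genes 0.933% passed in the first direction and 0.685% in the other. The 4 genes passed in all 12 fits that left out a library, and the count was 11 without GH + Phen A, 4 in each of the other 11, and 22 without both GH + Phen A and DMSO C, of which 13 were higher and 9 lower beside GH. Of all tested genes 2.93% were higher and 4.09% lower beside GH without GH + Phen A, and 17.8% and 13% without both libraries. Between the combinations themselves, 10 genes were higher in GH + Phen than in 2DG + Phen and none lower, beside 8.33% and 2.16% of all genes. HERPUD1 (1.93, SE 0.049, adjusted p = 8.92e-13) and DNAJB9 (1.37, SE 0.11, adjusted p = 1.38e-06) differed by more than 2-fold, and MANF by 0.56 (SE 0.062, adjusted p = 3.72e-05). Of the 10 calls 8 held in all 6 fits that left out a library of the pair, with EDEM3 in 2 and HSPA13 in 3.

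**Figure D3:**
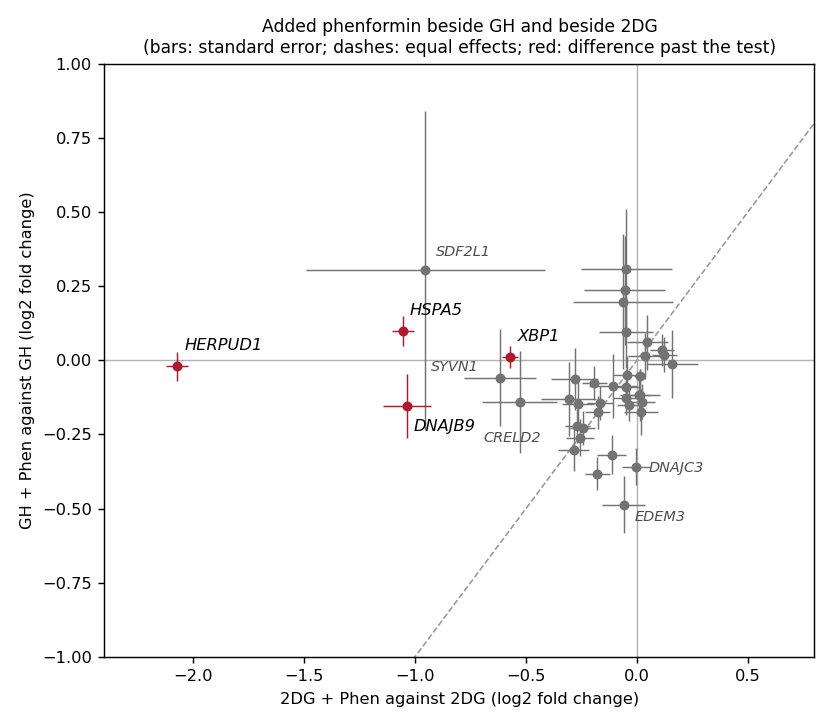
Each point is 1 of the 40 genes, with the log2 fold change of 2DG + Phen against 2DG on the horizontal axis and that of GH + Phen against GH on the vertical axis, bars for the standard error and a dashed line of equal effects. HERPUD1, HSPA5, DNAJB9 and XBP1 (red, the genes whose difference passed) lie at −2.07 to −0.57 on the horizontal axis and between −0.15 and 0.10 on the vertical one.

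The element shown above was searched, on both strands, in the promoter sequence of every gene of the RefSeq promoter table on the primary chromosomes, 27305 promoters. Every member counted had a match within the 250 bases before the start given in that promoter table. In HSP90B1, CANX and CRELD2 that match lay after the annotated start of the gene. The fixed ends of ERSE and of ERSE-II share CCACG, and neither form contains the other. ERSE was found in 0.0806% of promoters and in 7 of the 38 searched members, and ERSE-II in 0.0549% and in 3 members, so that 10 members (26.3%) and 0.136% of all promoters held either. Most of the members are known UPR targets and these are known UPR sites, so the shares are not an independent test of a link. PDIA3 and DERL1 were not searched. The ERSE members were HSPA5, HSP90B1, CALR, CANX, CRELD2, XBP1 and SERP1, and the ERSE-II members HYOU1, SDF2L1 and HERPUD1. The UPR element UPRE (TGACGTGG) was found in 0.795% of promoters and in 2 members, HYOU1 and DNAJC10. The copies in 6 of these genes are printed to show how much the spacer between the fixed ends varies.
CALR ERSE: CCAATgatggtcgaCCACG
CANX ERSE: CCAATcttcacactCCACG
CRELD2 ERSE: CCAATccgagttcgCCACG
SERP1 ERSE: CCAATtcgctgtctCCACG
HYOU1 ERSE-II: ATTGGaCCACG
SDF2L1 ERSE-II: ATTGGtCCACG

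The 10 members with a match had a median log2 fold change of 0.58 in GH, 0.68 in 2DG, 0.52 in GH + Phen and 0.16 in 2DG + Phen. The 28 without one had medians of 0.13, −0.034, 0.055 and −0.086 in the same order. These values are not corrected for GC content. Of the genes with a match, SDF2L1, CRELD2, HYOU1 and CALR have 55.5% to 64.5% GC and the others 40.5% to 46.0%. The part of GC content in these medians was not tested. In GH 7 of the 10 and 8 of the 28 rose, and in 2DG 7 of the 10 rose and none fell, while 8 of the 28 rose and 9 fell. A match did not go with a rise in every case, since CANX and SERP1 carry ERSE and passed in neither GH nor 2DG, while DNAJB9 and DNAJB11, without a match in this window, rose in both. In Phen the medians were −0.026 with a match and −0.014 without. These counts describe letters in a window, and no binding was measured.

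**Figure D4:**
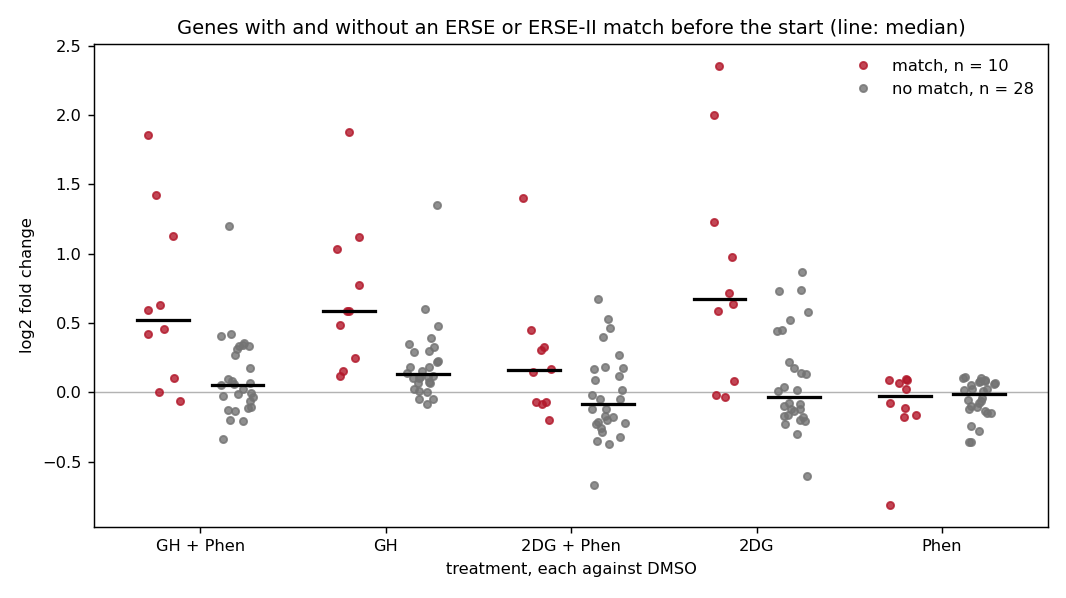
Log2 fold change (vertical axis) of the 10 genes with an ERSE or ERSE-II match and the 28 without, in GH + Phen, GH, 2DG + Phen, 2DG and Phen against DMSO, with each gene a point and the median a line. The medians with a match are 0.52, 0.58, 0.16, 0.68 and −0.026, those without 0.055, 0.13, −0.086, −0.034 and −0.014, and the 2 sets overlap in every treatment. The values are not corrected for GC content.

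The GC content of the 40 genes, from 35.7% in EDEM3 to 64.5% in SDF2L1, went with part of their fold changes. Across the 40 genes, which are not independent replicates and share the same libraries, Pearson's r between log2 fold change and GC content was 0.35 in GH + Phen, 0.13 in GH, 0.83 in 2DG + Phen, 0.54 in 2DG and −0.77 in Phen. Over all tested genes it was 0.54, 0.28, 0.61, 0.68 and −0.48 in the same order. HERPUD1, HSPA5, DNAJB9 and XBP1 have GC contents of 37.3% to 46.0% and lay far above the other genes of like GC content in GH and 2DG. After correction of each library for GC content and length their values in 2DG were 2.21, 1.39, 1.16 and 0.88, and those of 2DG + Phen against 2DG were −2.04, −1.02, −0.98 and −0.55. In 2DG + Phen against DMSO the corrected values were 0.17, 0.37, 0.18 and 0.33, and all passed, which for HERPUD1 and DNAJB9 is the opposite sign to the uncorrected value. The corrected counts were 22 up and 1 down in GH, 20 and 2 in 2DG, 18 and 3 in GH + Phen and 15 and 7 in 2DG + Phen. Of all tested genes 7.49% rose and 7.77% fell in GH after the correction, and 22.7% and 21% in 2DG. The shares were 19.6% and 17.9% in GH + Phen, and 28% and 22.9% in 2DG + Phen. Whether the GC trend came from the libraries or from the treatment was not tested.

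**Figure D5:**
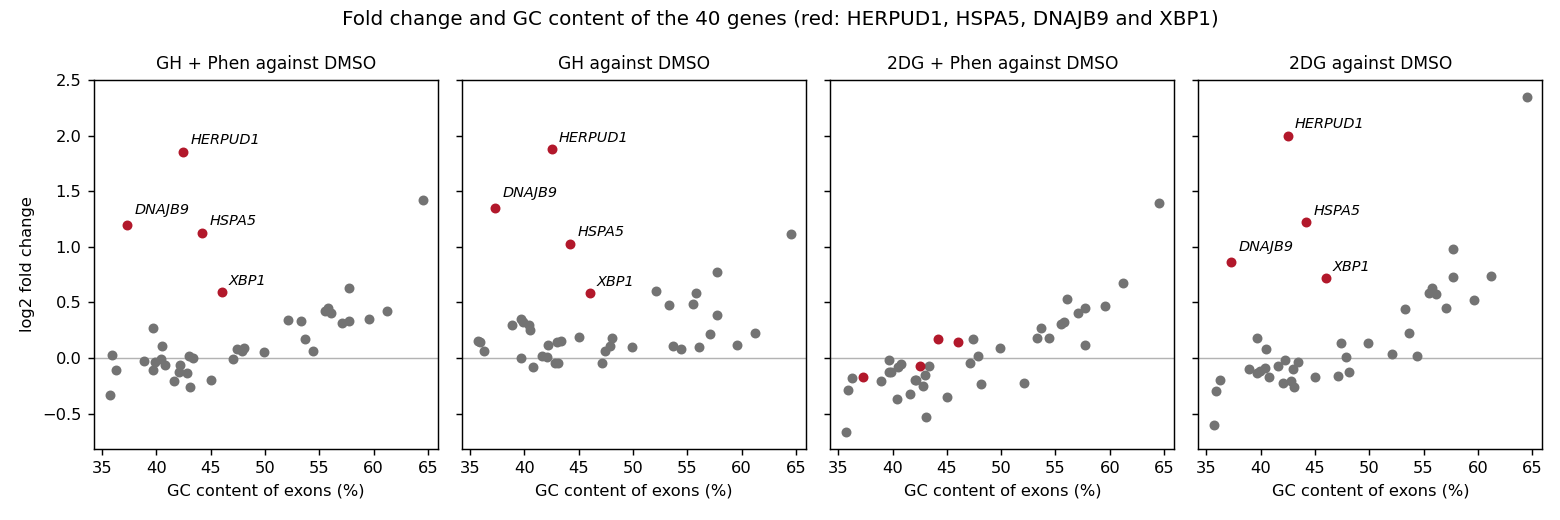
Log2 fold change (vertical axis) against the GC content of the exons in percent (horizontal axis) for the 40 genes in GH + Phen, GH, 2DG + Phen and 2DG against DMSO. HERPUD1, HSPA5, DNAJB9 and XBP1 (red) stand above the other genes of like GC content in GH + Phen, GH and 2DG, whereas in 2DG + Phen they lie between −0.17 and 0.17, within the range of the other genes, with HSPA5 and XBP1 above most genes of like GC content.

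Genes of the same pathways outside the 40 gave the setting, to be read beside the shares of all tested genes given above (2.29% rose and 3.63% fell in GH, 24.7% and 30.3% in 2DG). Of 27 further ER folding enzymes none rose or fell in GH (4 at an unadjusted p under 0.05), and 7 rose and 12 fell in 2DG. Of 23 further ERAD genes tested, 1 rose in GH, and 6 rose and 7 fell in 2DG. Of 18 genes of signal recognition and signal peptidase none passed in GH (0 at an unadjusted p under 0.05) and 8 fell in 2DG. Of 12 genes of the COPII coat, which carries cargo out of the ER, 2 rose in GH, and 3 rose and 5 fell in 2DG. Among 15 tested genes of UPR signalling, 5 rose and 1 fell in GH, 9 rose and 4 fell in 2DG, 6 rose and 1 fell in GH + Phen, and 4 rose and 2 fell in 2DG + Phen. None passed in Phen, with 2 at an unadjusted p under 0.05. DDIT3, ATF4, PPP1R15A and CHAC1, described next, were picked for their roles and do not stand for the genes that fell.

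DDIT3 (CHOP), the death-linked factor downstream of PERK and ATF4, had means of 65.7 ± 5.21 FPKM in GH + Phen, 43.8 ± 1.23 in GH, 45.9 ± 2.60 in 2DG + Phen, 99.3 ± 2.71 in 2DG and 17.7 ± 1.96 in DMSO. It rose in all of these treatments, by 1.31 (SE 0.072, adjusted p = 4e-08) in GH, 2.49 (SE 0.072, adjusted p = 8.22e-12) in 2DG and 1.37 (SE 0.072, adjusted p = 4.27e-09) in 2DG + Phen. In 2DG + Phen, where HERPUD1 did not pass, all DDIT3 libraries were above those of DMSO. DDIT3 rose further when phenformin was added to GH (0.58, SE 0.072, adjusted p = 0.000118) and fell by 1.11 (SE 0.072, adjusted p = 1.27e-07) when it was added to 2DG. ATF4 itself rose by 0.72 (SE 0.045, adjusted p = 4.75e-08) in GH + Phen, 0.98 in 2DG and 0.60 in 2DG + Phen. PPP1R15A (GADD34), which restores translation, rose most in 2DG + Phen (1.84, SE 0.12, adjusted p = 5.16e-08) and rose when phenformin was added to GH (1.06, SE 0.12, adjusted p = 6.74e-05). CHAC1, a target of ATF4 and CHOP, rose by 5.01 (SE 0.26, adjusted p = 5.57e-09) in 2DG and stood at 0.43 (SE 0.26, adjusted p = 0.167) in 2DG + Phen, on a mean of 0.153 FPKM in 2DG + Phen, 5.99 in 2DG and 0.0886 in DMSO.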

How the data were processed

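RNA of 18 T98G libraries (stranded mRNA kit, paired ends) was mapped and quantified per gene by the authors in CLC Genomics Workbench on GRCh38 with Ensembl genes, strand by strand, and deposited as FPKM. Depths are given above and cover counting error only, and no library was left out of the reported fits. From the FPKM, log2(FPKM + 0.1) was tested with limma 3.58.1 (R 4.3.3), with 6 group means, a trended variance and 12 residual degrees of freedom, in 12 comparisons with Benjamini-Hochberg adjustment over genes. The script was tested on simulated data. GC content came from GENCODE, for 99.29% of tested genes. Tables and figures used Python 3.11.15, pandas 2.3.3, numpy 2.4.6 and matplotlib 3.10.9.

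The members and lists were chosen with earlier results of these data known. Values per library were given for members past the test with a log2 change of at least 0.8 in any comparison with DMSO and for the sensor genes. Other members were given by counts and examples of small adjusted p. MANF, EDEM3, DERL1 and DNAJC3 were given per library after their values had been seen, as were the printed DDIT3, ATF4, PPP1R15A and CHAC1 for their roles. Alternatives were other scalings, pseudocounts, filters, models, a correction for GC content and length, and each library left out.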

Additional observations from a re-analysis of the deposited data

Results flagged for a closer look

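The effect of adding phenformin differed between GH and 2DG for 4 of the 40 genes, by a limma test of the difference itself that was added after the values had been seen. The difference of the log2 fold changes, that beside GH minus that beside 2DG, was 2.052 for HERPUD1 (adjusted p = 2.16e-10), 1.153 for HSPA5 (adjusted p = 3.17e-07), 0.884 for DNAJB9 (adjusted p = 0.00635) and 0.582 for XBP1 (adjusted p = 1.3e-05). Of all tested genes 0.933% passed with the higher value beside GH and 0.685% with the lower one. For each of the 4 genes all 3 GH + Phen libraries were above all 3 libraries of 2DG + Phen. The genes were picked by the difference in these same libraries, so this describes their values and is no test. After correction for GC content and length the values were 2.11 for HERPUD1, 1.20 for HSPA5, 0.98 for DNAJB9 and 0.65 for XBP1.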

How the results depend on the processing

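The number of the 40 genes that passed depended on the processing more than the 4 leading genes did. HERPUD1, HSPA5, DNAJB9 and XBP1 passed in 2DG + Phen against 2DG in all 6 fits that left out a library. With only the compared groups in the fit, the count was 5 in GH, 4 in GH + Phen and 15 in 2DG + Phen against DMSO, 0 in GH + Phen against GH, 5 in GH + Phen against 2DG + Phen, and 1 and 8 for the interactions of phenformin with GH and with 2DG. In that fit 0.496% of all tested genes rose and 0.479% fell in GH + Phen against 2DG + Phen. For the interaction with 2DG the shares were 1.45% and 4.46%, and the others are given with the results above. With no filter on low values the count was 14 in 2DG + Phen, where 7.47% of all genes in that fit rose and 15.2% fell. Without DMSO C and GH + Phen A the count was 23 in GH, 35 in GH + Phen, 23 in GH + Phen against GH, 17 in 2DG + Phen against 2DG, 31 in GH against 2DG, 17 and 11 for the interactions, and 22 for the difference of the phenformin effects. Of all tested genes 5.58% rose and 11.3% fell in 2DG + Phen against 2DG, and 31.8% and 27.4% in GH against 2DG. For the interaction with 2DG the shares were 2.11% and 5.34%, and the others are given above.

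After correction for GC content and length the count was 23 in GH, 2 in Phen, 16 in GH + Phen against GH, 19 in 2DG + Phen against 2DG, 19 in GH + Phen against 2DG + Phen, 12 and 15 for the interactions, and 9 for the difference of the phenformin effects. Of all tested genes 2.55% rose and 0.857% fell in Phen, and 11.1% and 10.7% in GH + Phen against GH. The shares were 12.3% and 10.8% in 2DG + Phen against 2DG, and 8.24% and 9.47% in GH + Phen against 2DG + Phen. For the interactions they were 4.77% and 6.96% with GH, and 5.57% and 7.8% with 2DG. For the difference they were 3.4% and 2.79%. That correction turned the sign of values that passed before or after it, alike with and without the replicate block. In 2DG against DMSO they became 0.114 for DNAJC3, 0.103 for CANX, −0.043 for P4HB, 0.115 for SEL1L, −0.199 for EDEM2, 0.134 for DERL2, −0.105 for WFS1, 0.014 for SEC61B, 0.062 for SEC61G, 0.105 for SSR3 and 0.187 for SERP1. In GH + Phen against DMSO they became 0.13 for DNAJC3, 0.109 for SEL1L and 0.079 for SERP1. In 2DG + Phen against DMSO they became 0.125 for HSP90B1, 0.052 for HSPA13, 0.18 for DNAJB9, 0.24 for DNAJB11, 0.162 for DNAJC3, 0.075 for CANX, 0.023 for PDIA3, 0.175 for HERPUD1, 0.053 for SEL1L, −0.266 for SYVN1, 0.139 for ATF6, −0.033 for WFS1, 0.027 for SEC61G, 0.168 for SSR3 and 0.049 for SERP1. In GH against 2DG they became −0.02 for HSP90B1, 0.249 for HYOU1, −0.012 for DNAJB11, 0.15 for CALR, 0.127 for P4HB, 0.19 for CRELD2, 0.08 for OS9, −0.091 for ATF6 and −0.046 for SSR3. In GH + Phen against 2DG + Phen SSR3 became −0.111, in the interaction of GH and phenformin CALR became −0.268 and CRELD2 −0.321, and in the difference of the phenformin effects OS9 became −0.139. With the block as well, CALR in Phen became 0.104 and SSR3 in GH + Phen 0.057, and P4HB became −0.088 in GH + Phen against GH, −0.141 in the interaction with GH and −0.131 in the difference of the phenformin effects. Without DMSO C and GH + Phen A, PDIA3 in GH + Phen became −0.111. The cause was not tested.

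The replicate letters did not meet the condition that every correlation between libraries of the same letter exceed 0.1. Over 45 such pairs the correlations of the deviations from group means averaged 0.185, against −0.094 for other pairs, and ran from −0.434 to 0.592, with 29 over 0.1, and 12 of 18 libraries correlated best with their own letter. With the replicate block the count was 1 in Phen, 23 in GH + Phen, 13 in GH + Phen against GH, 17 in 2DG + Phen against 2DG, and 14 and 11 for the interactions. Of all tested genes 0.603% rose and 0.446% fell in Phen, and 20.2% and 23.6% in GH + Phen. The shares were 6.13% and 13.3% in GH + Phen against GH, and 4.81% and 9.64% in 2DG + Phen against 2DG. For the interactions they were 5.66% and 8.96% with GH, and 2.07% and 5.34% with 2DG. With the replicate block and the GC and length correction the count was 25 in GH, 3 in Phen, 23 in GH + Phen, 19 in GH + Phen against GH, 23 in 2DG + Phen against 2DG, 18 in GH + Phen against 2DG + Phen, 16 and 15 for the interactions, and 10 for the difference of the phenformin effects. Of all tested genes 8.49% rose and 8.6% fell in GH, 3.39% and 1.13% in Phen, and 22.6% and 19.6% in GH + Phen. The shares were 13.3% and 12.4% in GH + Phen against GH, and 13.5% and 11.3% in 2DG + Phen against 2DG. They were 8.83% and 10.4% in GH + Phen against 2DG + Phen. For the interactions they were 6.6% and 8.83% with GH, and 6.07% and 8.39% with 2DG. For the difference they were 4.16% and 3.79%.

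With each library left out in turn, the counts ran from 9 to 13 in GH, 15 to 30 in 2DG, 9 to 27 in GH + Phen and 9 to 31 in 2DG + Phen against DMSO. They ran from 4 to 18 in GH + Phen against GH, 6 to 9 in 2DG + Phen against 2DG, 2 to 21 for the interaction of GH and phenformin, and 4 to 11 for the difference of the phenformin effects. The shares of all tested genes moved as well, in GH + Phen against DMSO from 5.23% to 26.7% rising and from 12% to 29.5% falling. At the thresholds of the study the counts stayed at 2 to 3 in GH and in 2DG, at 3 in GH + Phen and at 0 in 2DG + Phen and Phen. Depth limited SDF2L1 most, with as few as 6 fragments in a library.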
